A study of Mus musculus with 6 samples.

Results

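Albumin and 8 further genes for proteins that the liver secretes into blood at all times were followed in mouse liver: Alb, Ttr, Trf, Gc, Serpina6, Ambp, Apoh, Azgp1 and Pzp. The 9 genes were picked by symbol from 56534 genes or loci of the deposited table, and each symbol matched 1 line. They were proposed with the levels of these libraries in both groups already known, so the levels and differences of the 9 genes are given as a description, with no p-value. Hepatocytes make most plasma protein. They pass each chain into the endoplasmic reticulum and secrete it without storing it, so output is set largely by the rate of synthesis. Many of these proteins carry a small molecule that would otherwise dissolve poorly, be lost or do harm: fatty acids, thyroid hormone, vitamin D, glucocorticoids or iron. Several, albumin among them, are known as negative acute phase proteins, whose synthesis the liver lowers in inflammation.

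The libraries came from livers of C57BL/6 mice, and all animals ate for 16 weeks a diet with 60% of its energy from fat. CON libraries (n = 3) came from wild-type mice. LKO libraries (n = 3) came from mice labelled CD36-/-, which the title of the series describes as lacking CD36, a membrane protein that takes up fatty acids, in hepatocytes only. The line that removes the gene, sex, age and the number of animals behind each library are not stated, so p-values measure the spread between libraries only, which may be partly technical. Values are FPKM, fragments scaled to gene length and to mapped fragments, which are per length and can be set side by side between genes.

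Cd36 itself was at 61.95, 26.49 and 19.66 FPKM across CON 1 to 3 and at 2.73, 3.7 and 10.22 FPKM across LKO 1 to 3, with no overlap. Its log2 fold change, LKO minus CON, of -2.5 (SE 0.51) had no call in the fit over all genes (limma, adjusted p = 0.163). With LKO 3 left out, Cd36 was called (limma, adjusted p = 0.0164), as were 18.9% of all genes as lower. A gene or list without a call is therefore not shown to be unchanged. All 8 hepatocyte markers were tested, and their summed level was 11309 to 13974 FPKM in CON and 8977 to 9749 FPKM in LKO. That gap was carried by Cyp2e1, the 1 marker of the 8 whose groups did not overlap (7063.7 to 8853.75 and 4667.84 to 5909.31 FPKM). The other 7 summed to 4245 to 5120 FPKM in CON and 3814 to 4611 FPKM in LKO, with overlap. The sum of all FPKM ran from 831928 to 1271880 per library, and the depth in reads is unknown. CON 1 stood apart in the major urinary proteins (Mup genes, abundant secreted lipocalins of mouse liver), which held 6.22% of its summed FPKM and 15.6% to 29.4% elsewhere. LKO 2 stood apart in the mitochondrially encoded genes, with 10.1% against 3.88% to 6.18% elsewhere. Over the 11104 genes whose mean FPKM reached 1, the median log2 fold change, LKO minus CON, was -0.23 as deposited. It was -0.01 after median-ratio scaling, which sets the typical gene equal between libraries, and -0.48 with every library set to the same summed FPKM.

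RefSeq windows before the start site were found for 6 of the 9 genes. The 3 shown are those of Alb, whose level varied most among these 6, and of Gc and Azgp1, whose levels varied least. Each window holds the 250 bases before the annotated start of the gene in build GRCm38.p6, 5′ to 3′ on the gene's strand: Alb at chr5:90460620-90460869 on the plus strand, Gc at chr5:89457899-89458148 on the minus strand and Azgp1 at chr5:137981271-137981520 on the plus strand. Capitals mark matches, on either strand, to short cores of binding motifs. The TATA box was searched as TATAAA. The box bound by the factor NF-Y was searched as CCAAT. For HNF1, a homeodomain factor of hepatocytes, the letters were GTTAAT. The D-box of bZIP factors such as DBP, HLF and TEF was searched as TTNNGTAA, where N is any base. For the pioneer factors of the FOXA family the letters were TGTTTNC. For the nuclear receptor HNF4 they were CAAAGT.
Alb: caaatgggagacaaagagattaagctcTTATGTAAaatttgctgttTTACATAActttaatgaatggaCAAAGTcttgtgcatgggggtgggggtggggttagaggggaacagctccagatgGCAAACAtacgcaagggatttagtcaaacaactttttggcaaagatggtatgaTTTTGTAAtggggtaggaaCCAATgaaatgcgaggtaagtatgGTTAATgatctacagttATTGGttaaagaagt
Gc: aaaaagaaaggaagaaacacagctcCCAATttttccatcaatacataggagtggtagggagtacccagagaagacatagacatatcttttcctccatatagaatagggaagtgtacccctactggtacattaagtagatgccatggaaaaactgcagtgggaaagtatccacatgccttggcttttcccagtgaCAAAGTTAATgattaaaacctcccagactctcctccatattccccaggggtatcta
Azgp1: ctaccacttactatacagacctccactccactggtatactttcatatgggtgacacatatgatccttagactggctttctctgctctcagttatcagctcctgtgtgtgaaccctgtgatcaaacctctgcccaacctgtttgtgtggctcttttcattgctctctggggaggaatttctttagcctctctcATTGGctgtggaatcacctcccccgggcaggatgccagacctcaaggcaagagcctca

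The Alb window held 3 D-box matches, 2 CCAAT matches and 1 each for HNF1, FOXA and HNF4. The Gc window held 1 CCAAT match, and its HNF4 and HNF1 matches overlap in the run of capitals CAAAGTTAAT. The Azgp1 window held a single CCAAT match. Of the 6 windows, 3 held the HNF1 core (Alb, Gc and Pzp), against 6.43% of 32851 windows of all genes. The D-box letters were in 3 (Alb, Apoh and Pzp; 8.09% of all windows), CCAAT in 4 (33.8%), the FOXA core in 3 (17.8%), the HNF4 core in 2 (12.6%) and TATAAA in 0 (12.4%). Over 10480 windows of tested genes the shares were 4.44% for HNF1, 6.13% for the D-box and 35.3% for CCAAT. They were 14.1% for FOXA, 11.6% for HNF4 and 6.91% for TATAAA. Only these exact letters before the annotated start were searched, so absence of TATAAA does not show absence of a TATA box. The D-box letters were widened after the Alb window had been read, and a match is a description and not a shown binding site.

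Albumin, the most abundant plasma protein and the main carrier of free fatty acids in blood, was the highest of the 9 genes in every library. Alb (ENSMUSG00000029368) was at 45750.81, 28574.83 and 24911.37 FPKM across CON 1 to 3 and at 17441.08, 16410.33 and 26682.28 FPKM across LKO 1 to 3. The groups overlapped: LKO 1 and LKO 2 lay below every CON library, and LKO 3 lay above CON 3. The means were 33079 ± 11126 FPKM for CON and 20178 ± 5656 FPKM for LKO (SD, n = 3 each), 1.64-fold apart, with a log2 fold change of -0.70 (SE 0.35). This difference was -0.44 without CON 1 and -0.92 without LKO 3. Among all genes Alb ranked in places 1, 2 and 4 by FPKM across CON 1 to 3 and in places 15, 20 and 4 across LKO 1 to 3.

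**Figure D1:**
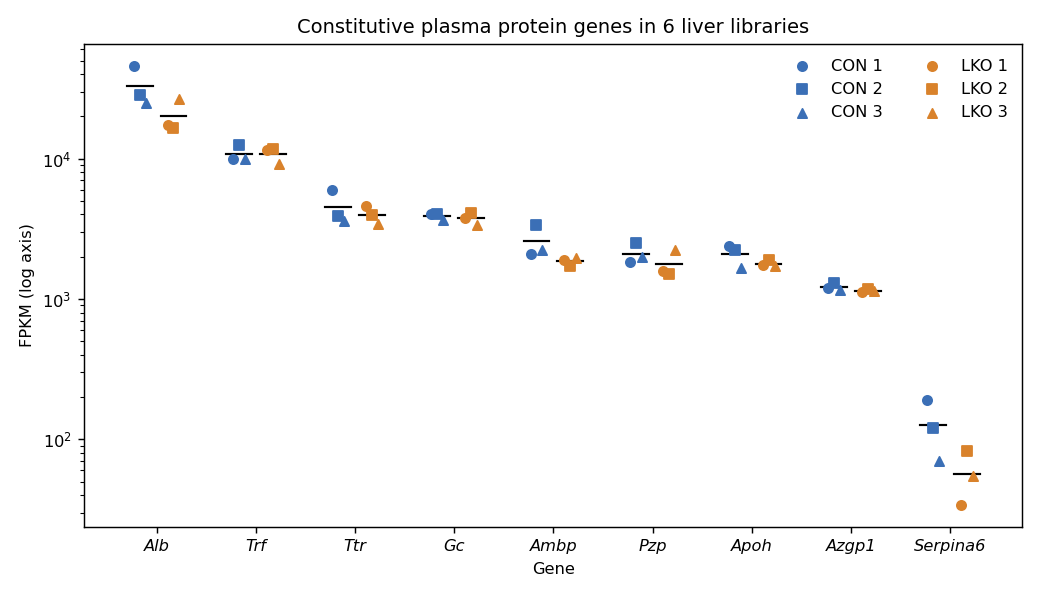
FPKM of the 9 plasma protein genes (log axis) in each of the 3 CON libraries (blue) and 3 LKO libraries (orange), with a black line at each group mean. Alb spans 16410.33 to 45750.81 FPKM and Serpina6 34.1 to 190.17 FPKM, while the 6 values of Gc and of Azgp1 lie close together.

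Albumin belongs to a small family with the vitamin D-binding protein (Gc), alpha-fetoprotein (Afp, the fetal counterpart of albumin) and afamin (Afm, a vitamin E carrier). In the deposited annotation Alb and Gc carry the same Pfam entries, those of the serum albumin family and of vitamin D-binding protein. Gc (ENSMUSG00000035540) was at 4004.43, 4049.27 and 3633.05 FPKM across CON 1 to 3 and at 3786.79, 4095.83 and 3369.15 FPKM across LKO 1 to 3. These 6 values interleaved, with a largest-to-smallest ratio of 1.22 and a log2 fold change of -0.06 (SE 0.21). Afm, tested as a gene outside the 9, was at 82.0 ± 18.2 FPKM for CON and 53.9 ± 1.99 FPKM for LKO (SD, n = 3 each). Its groups did not overlap, but the difference of -0.57 on the log2 scale (SE 0.20) missed the threshold (limma, adjusted p = 0.193). Afp was at 0.36 to 0.64 FPKM over the 6 libraries and was below the minimum for testing. The family therefore spanned levels from below 1 FPKM for Afp to over 16410 FPKM for Alb.

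Ratios of genes within 1 library do not depend on how the library was scaled. The Alb-to-Gc ratio was 11.4, 7.06 and 6.86 across CON 1 to 3 and 4.61, 4.01 and 7.92 across LKO 1 to 3. Alb-to-Ttr was 7.61, 7.37 and 6.93 in the CON libraries and 3.79, 4.13 and 7.86 in the LKO libraries. LKO 1 and LKO 2 were thus low in both ratios, and LKO 3 lay inside or above the CON values. Trf-to-Gc, by contrast, was 2.49 to 3.06 in CON and 2.70 to 3.06 in LKO, and Azgp1-to-Gc was 0.296 to 0.321 and 0.289 to 0.339. Alb-to-Afm overlapped as well, at 399 ± 56.1 in CON and 374 ± 98.9 in LKO (SD, n = 3 each). Alb-to-Trf was 4.59, 2.30 and 2.50 across CON 1 to 3 and 1.51, 1.41 and 2.93 across LKO 1 to 3. Alb-to-Ambp was 22.0, 8.46 and 11.1 across CON 1 to 3 and 9.16, 9.55 and 13.6 across LKO 1 to 3. Against Ambp, LKO 1 and LKO 2 thus lay inside the CON range, above CON 2.

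**Figure D2:**
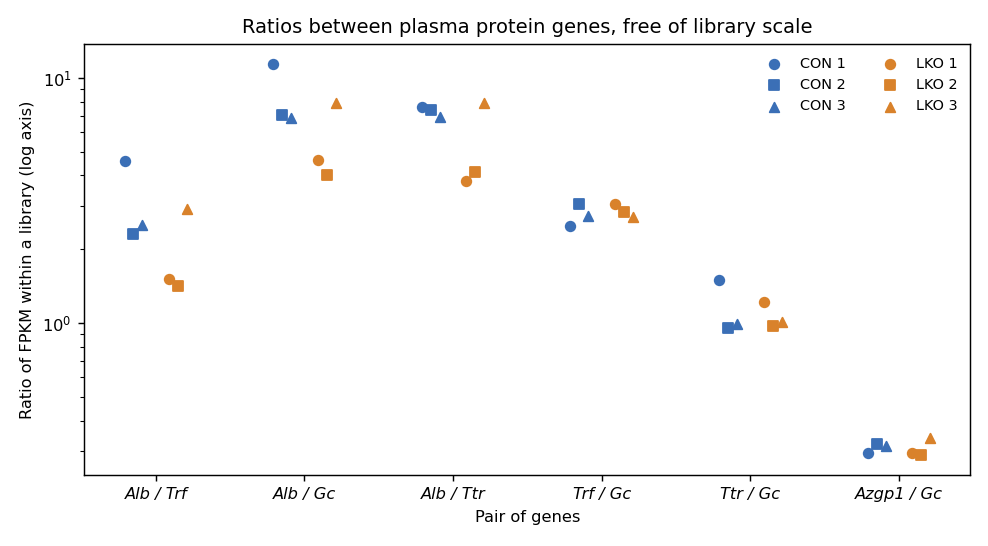
Ratio of the FPKM of 2 plasma protein genes within each library (log axis), CON in blue and LKO in orange. Alb / Gc and Alb / Ttr are low in LKO 1 and LKO 2 and not in LKO 3, while Trf / Gc and Azgp1 / Gc stay within 2.49 to 3.06 and 0.289 to 0.339 over all 6 libraries.

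Transthyretin (Ttr), corticosteroid-binding globulin (Serpina6) and thyroxine-binding globulin (Serpina7) carry hormones. Ttr, which carries thyroxine and also the retinol-binding protein Rbp4, was at 6013.17, 3875.5 and 3593.38 FPKM across CON 1 to 3 and at 4597.75, 3976.58 and 3395.79 FPKM across LKO 1 to 3. CON 1 was the highest and the other values of both groups interleaved. The log2 fold change of Ttr was -0.14 (SE 0.27), and 0.09 without CON 1. Its partner Rbp4, outside the 9, was at 5266 ± 446 FPKM for CON and 5805 ± 408 FPKM for LKO (SD, n = 3 each; limma, adjusted p = 0.690).

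Serpina6, the glucocorticoid carrier, had the lowest level and the widest spread of the 9 genes. It was at 190.17, 120.9 and 70.06 FPKM across CON 1 to 3 and at 34.1, 81.91 and 54.9 FPKM across LKO 1 to 3. The groups overlapped, since LKO 2 lay above CON 3. The means, 127 ± 60.3 and 57.0 ± 24.0 FPKM (SD, n = 3 each), were 2.23-fold apart, a log2 fold change of -1.12 (SE 0.42) and the largest difference among the 9. It was -0.77 without CON 1 and -1.48 without CON 3. The glucocorticoid receptor gene Nr3c1, which responds to the hormone that Serpina6 carries, was at 9.57 ± 1.59 FPKM for CON and 5.30 ± 2.70 FPKM for LKO (SD, n = 3 each), with overlap (limma, adjusted p = 0.197).

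Serpina7, the thyroxine-binding serpin, is outside the 9 and was tested. It was at 32, 29.84 and 14.8 FPKM across CON 1 to 3 and at 3.59, 3.47 and 7.96 FPKM across LKO 1 to 3, with no overlap. Its log2 fold change of -2.15 (SE 0.37) had no call in the whole fit (limma, adjusted p = 0.163). It passed when LKO 3 was left out (limma, adjusted p = 0.0138), where 18.9% of all genes were called lower. It also passed when low genes were kept in the fit (limma, adjusted p = 0.00482), where limma gave a warning about the residual variances. The Serpina6-to-Serpina7 ratio was 4.05 to 5.94 in CON and 6.90 to 23.6 in LKO, so the hormone-carrying serpins did not keep 1 ratio over the libraries.

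Transferrin (Trf), which carries iron to cells, was second to Alb in every library among the 9 genes. Trf (ENSMUSG00000032554) was at 9957.2, 12402.99 and 9959.29 FPKM across CON 1 to 3 and at 11580.33, 11621.14 and 9110.88 FPKM across LKO 1 to 3. The group means of 10773 ± 1411 and 10771 ± 1438 FPKM (SD, n = 3 each) were nearly equal, with an SE of 0.25 on the log2 difference. Its hepatocyte receptor gene Tfr2 was at 218 ± 33.2 and 219 ± 35.6 FPKM, and the general transferrin receptor gene Tfrc at 3.76 ± 0.16 and 3.67 ± 1.27 FPKM, in CON and LKO (SD, n = 3 each; limma, adjusted p = 0.990 and 0.875).

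Ambp encodes a precursor that is cut into the heme-binding lipocalin alpha-1-microglobulin and the protease inhibitor bikunin. It was at 2077.34, 3379.28 and 2245.02 FPKM across CON 1 to 3 and at 1903.98, 1718.37 and 1960.84 FPKM across LKO 1 to 3. Ambp was the only 1 of the 9 genes whose groups did not overlap, with the LKO libraries lower. Non-overlap was seen, LKO lower, for 24.3% of all genes tested and, LKO higher, for 3.92%, and the gap between LKO 3 and CON 1 was small. Its log2 fold change was -0.43 (SE 0.25), and -0.22 without CON 2. The heavy chains that bikunin is joined to in plasma were not alike: Itih1 and Itih2 had log2 fold changes of -0.45 and -0.50, and Itih3 of -0.98 with 663.51 FPKM in CON 2 against 155.95 to 316.21 elsewhere.

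Pzp, a large protease trap of the alpha-2-macroglobulin family, was at 1828.52, 2491.68 and 1985.19 FPKM across CON 1 to 3 and at 1583.51, 1505.83 and 2227.51 FPKM across LKO 1 to 3. LKO 1 and LKO 2 lay below the CON libraries and LKO 3 within them, and the log2 fold change was -0.26 (SE 0.24). An opposite-strand gene, Gm10069, overlaps Pzp in the GENCODE M21 annotation and was at 37.14 to 70.5 FPKM. A small part of the Pzp value may thus belong to Gm10069, and much of the Gm10069 value may belong to Pzp. Of the related murinoglobulin genes, Mug1 was at 1037 ± 138 and 603 ± 331 FPKM and Mug2 at 219 ± 61.5 and 153 ± 19.4 FPKM in CON and LKO (SD, n = 3 each; limma, adjusted p = 0.210 and 0.282). Single values of these close copies are uncertain. A2m, the namesake of the family, was at 0.01 to 0.06 FPKM.

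Apoh (beta-2-glycoprotein I), which binds anionic phospholipids, was at 2383.01, 2224.63 and 1648.76 FPKM across CON 1 to 3 and at 1737.56, 1896.1 and 1706.13 FPKM across LKO 1 to 3. The lowest value was that of CON 3, and the log2 fold change was -0.21 (SE 0.22). Azgp1 (zinc-alpha-2-glycoprotein), a secreted protein with the fold of MHC class I that is known for promoting lipolysis, was at 1186.95, 1301.42 and 1150.26 FPKM across CON 1 to 3. Across LKO 1 to 3 it was at 1116.94, 1184.78 and 1142.29 FPKM. Azgp1 had the smallest largest-to-smallest ratio of the 9, at 1.17. Its coefficient of variation in CON was 6.50%, next to 5.86% for Gc, against 33.6% for Alb and 47.5% for Serpina6.

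By mean level in CON the order was Alb, Trf, Ttr, Gc, Ambp, Pzp, Apoh, Azgp1 and Serpina6. Some neighbours in it did not differ beyond the spread of the libraries. Ttr was above Gc in 3 of 6 libraries, Pzp above Ambp in 1, Pzp above Apoh in 3 and Ambp above Apoh in 4. Alb was above Trf, and Trf above Gc, in 6 of 6 libraries. The highest value of Azgp1 lay below the lowest of Ambp, Pzp and Apoh.

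In the fit over all genes, 0.00901% of the genes tested had an adjusted p under 0.05 (limma). The 9 genes were chosen with their levels known, so no count of calls is given for them. Their median log2 fold change of -0.21 lay next to the -0.23 of all genes. On the deposited scale all 9 values were negative, from -1.12 for Serpina6 to just under 0 for Trf. After median-ratio scaling, 3 were negative (Serpina6 -0.85, Alb -0.43 and Ambp -0.16) and 6 positive, up to 0.27 for Trf. Their median was then 0.06, against -0.01 for all genes. With every library set to the same summed FPKM, all 9 were negative, from -1.42 to -0.31, with a median of -0.52 against -0.48. The direction of Ttr, Trf, Gc, Apoh, Azgp1 and Pzp thus depended on the scale, and that of Alb, Serpina6 and Ambp was the same under all 3. In bulk liver RNA, fewer hepatocytes and less RNA per hepatocyte cannot be told apart.

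**Figure D3:**
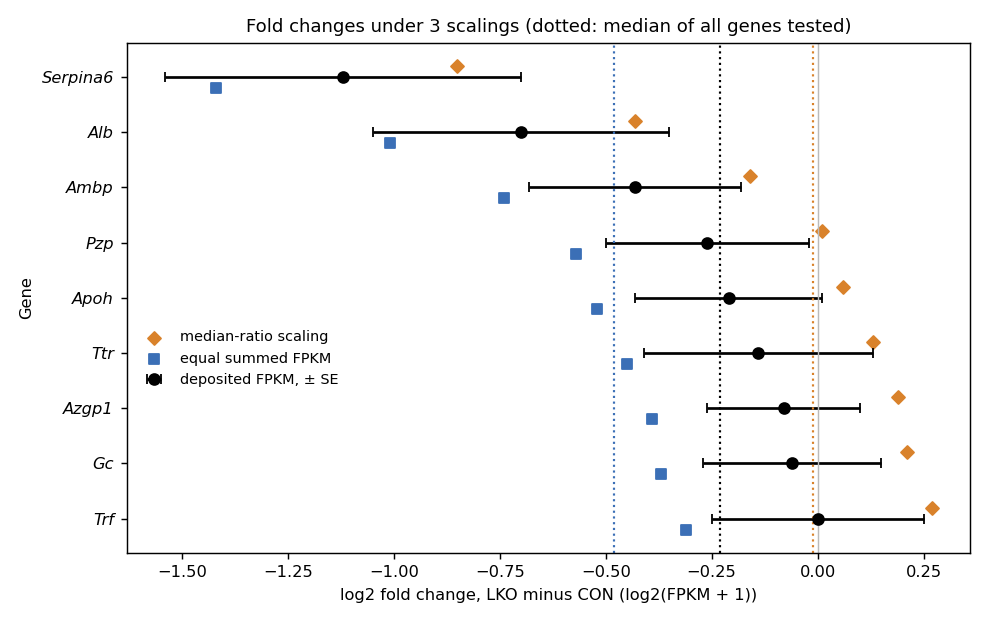
Log2 fold change of each gene, LKO minus CON on the log2(FPKM + 1) scale, from the deposited FPKM (black, ± SE), after median-ratio scaling (orange) and with equal summed FPKM (blue). Dotted lines show the median of all genes tested at -0.23, -0.01 and -0.48, and 6 of the 9 genes lie on both sides of 0 depending on the scale.

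As a share of the summed FPKM, the 9 genes together held 8.82%, 6.29% and 5.04% across CON 1 to 3 and 3.71%, 3.34% and 5.17% across LKO 1 to 3. LKO 3 lay above CON 3. Alb alone held 5.50%, 3.08% and 2.55% across CON 1 to 3 and 1.48%, 1.29% and 2.78% across LKO 1 to 3. The other 8 genes held 3.32%, 3.21% and 2.49% in the CON libraries and 2.23%, 2.05% and 2.39% in the LKO libraries, with no overlap. By gene, the shares of Trf, Gc, Serpina6 and Ambp did not overlap between groups, LKO lower, which was so for 35.9% of all genes tested. In FPKM, the other 8 summed to 27257 ± 2800 in CON and 25130 ± 1877 in LKO (SD, n = 3 each), with overlap.

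The share depends on what else a library holds. The share of the Mup genes was higher in each LKO library (23.9% to 29.4%) than in any CON library (6.22% to 22.1%), and its part in the lower shares of the 9 genes was not tested. With the Mup and mitochondrially encoded genes left out of the total, the 9 genes held 10.1%, 7.89% and 6.81% across CON 1 to 3 and 5.68%, 5.48% and 7.19% across LKO 1 to 3. Alb made up 62.3%, 48.9% and 50.6% of the summed FPKM of the 9 genes across CON 1 to 3 and 39.8%, 38.6% and 53.7% across LKO 1 to 3. Trf made up 13.6%, 21.2% and 20.2% in the CON libraries and 26.45%, 27.3% and 18.4% in the LKO libraries. Alb weighed least and Trf most in LKO 1 and LKO 2, while both lay within the CON range in LKO 3.

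**Figure D4:**
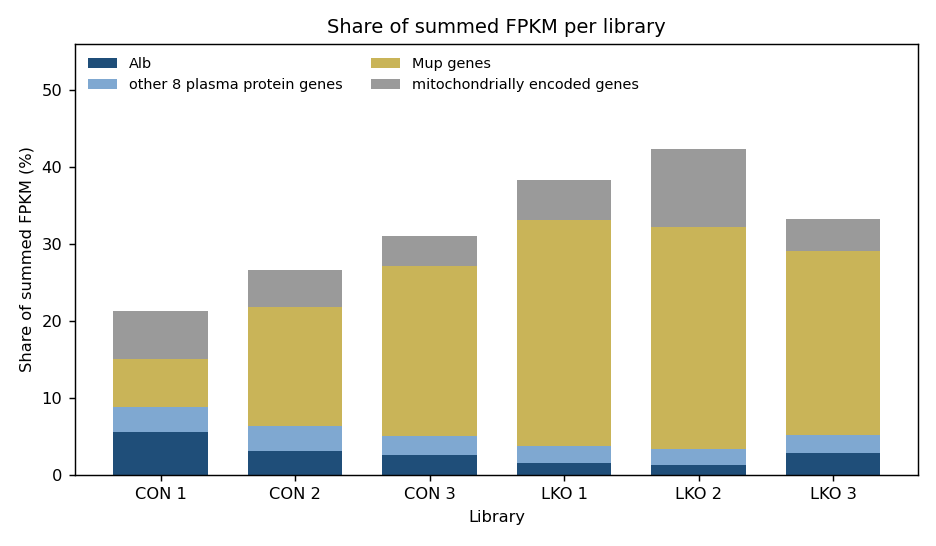
Share of the summed FPKM (%) held in each library by Alb, the other 8 plasma protein genes, the Mup genes and the mitochondrially encoded genes, stacked from 0. The Alb share is 5.50% in CON 1 and 1.29% in LKO 2, and the Mup share is 6.22% and 28.9% in the same libraries.

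Among genes outside the 9, those whose values over the 6 libraries were most like Alb were, in order, the bile acid transporter gene Slc10a1, Dpys, Echs1, Aplp2 and the antiplasmin gene Serpinf2. The measure was the root mean square difference of centred log2(FPKM + 1) values over 6 libraries, 0.063 for Slc10a1 and 0.136 for Serpinf2, among 853 genes whose mean FPKM reached 100. Slc10a1 was at 475.72, 335.39 and 282.18 FPKM across CON 1 to 3 and at 198.39, 181.23 and 280.6 FPKM across LKO 1 to 3. The nearest of the other 8 plasma protein genes to Alb was Apoh, at 0.391. Gc and Azgp1 were nearest to each other (0.081), as were Ambp and Pzp (0.186), and Serpina6 was far from all, with Alb nearest at 0.517.

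A list of 35 other constitutive plasma proteins (carriers, serpins and other inhibitors, kininogens and zymogens) was written from knowledge of the proteins. Earlier results of these data were known at that time. Of the list, 34 were tested. At an adjusted p under 0.05, 0 passed (limma, 0.00901% of all genes). At an unadjusted p under 0.05, 12 were lower and 0 higher in LKO, against 18.9% and 3.25% of all genes. After median-ratio scaling these counts were 1 and 0, against 8.29% and 9.68%. The list's median log2 fold change was -0.35 as deposited and -0.08 after median-ratio scaling. Without LKO 3, 12 passed lower at an adjusted p under 0.05, where 18.9% of all genes were called lower and 4.67% higher.

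The members with the smallest p were Serpina7, described above, the carboxypeptidase N subunit gene Cpn2, the plasminogen gene Plg and the heparin cofactor gene Serpind1. Cpn2 was at 74.0 ± 6.42 FPKM for CON and 42.7 ± 17.4 FPKM for LKO, Plg at 868 ± 150 and 510 ± 156 FPKM, and Serpind1 at 235 ± 42.8 and 129 ± 58.8 FPKM (SD, n = 3 each). Their adjusted p-values were 0.186 to 0.188 (limma). At the other end stood the alpha-1-antitrypsin copy Serpina1e, a gene picked with its values in view. It stood at 513.64 FPKM in CON 1 and at 6969.41 to 12569.81 FPKM in the other 5 libraries, and near-identical Serpina1 copies share reads.

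**Figure D5:**
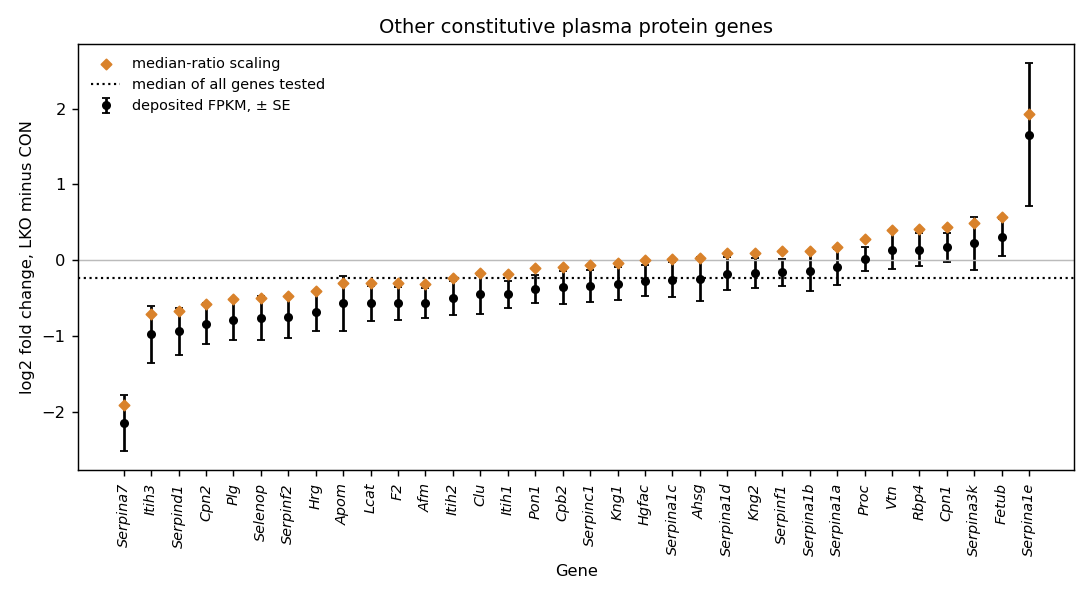
Log2 fold change, LKO minus CON, of 34 other constitutive plasma protein genes from the deposited FPKM (black, ± SE) and after median-ratio scaling (orange). Serpina7 lies lowest at -2.15 and Serpina1e highest at 1.66. The median of the list as deposited is -0.35, below the dotted median of all genes at -0.23.

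Several of the 9 proteins are lowered in inflammation, when inducible acute phase proteins are made instead. Of 27 inducible acute phase genes, 0 passed at an adjusted p under 0.05 (limma). At an unadjusted p under 0.05, 5 were lower and 0 higher in LKO, 2 and 0 after median-ratio scaling. The shares of all genes were 18.9% lower and 3.25% higher, and 8.29% and 9.68% after that scaling. The count of lower genes as deposited was thus near that of genes in general. The median log2 fold change of the 27 genes was -0.66, against -0.23 for all genes, and 26 of 27 were negative. After median-ratio scaling it was -0.39, against -0.01 for all genes, and 25 of 27 were negative. The list's median thus lay below that of all genes on both scales, a difference that was not tested. The summed level of the 27 genes was 14819, 36621 and 24083 FPKM across CON 1 to 3 and 14368, 11807 and 16953 FPKM across LKO 1 to 3. The sum was highest in CON 2, and its part in the levels of the 9 genes was not tested. Saa1 and Saa2, named after their values were seen, split the CON libraries. Saa1 was at 78.03, 4050.97 and 3561.49 FPKM across CON 1 to 3 and at 139.05 to 244.9 FPKM in LKO. Saa2 was at 40.84, 2900.72 and 2897.11 FPKM across CON 1 to 3 and at 55.25 to 122.43 FPKM in LKO. The smallest p were those of Serpina3n (333 ± 105 and 150 ± 54.2 FPKM in CON and LKO), Serpina3m (212 ± 81.0 and 68.7 ± 57.8), Saa4 (211 ± 68.1 and 98.1 ± 43.8) and Lbp (52.1 ± 9.30 and 31.5 ± 8.56), each SD over n = 3, with adjusted p-values of 0.176 to 0.187 (limma).

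Transcription factors of the liver secretory genes were listed too, 25 in all. None passed at an adjusted p under 0.05 (0 of 25, limma), and 5 were lower and 1 higher at an unadjusted p under 0.05, 3 and 1 after median-ratio scaling. Among all genes, 18.9% were lower and 3.25% higher, and 8.29% and 9.68% after that scaling, so the counts as deposited were near the background. The list's median was -0.40 as deposited and -0.17 after that scaling. The smallest p were those of Nfix (16.5 ± 3.10 FPKM for CON and 8.56 ± 0.99 FPKM for LKO), Nr5a2 (12.4 ± 2.61 and 6.84 ± 1.86), Cebpd (3.47 ± 1.03 and 6.09 ± 0.53) and Prox1 (12.4 ± 2.71 and 6.35 ± 2.13), each SD over n = 3, with adjusted p-values of 0.165 to 0.182 (limma). Cebpd was the 1 of these that was higher in LKO.

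The PAR bZIP factors Dbp, Hlf and Tef, clock output genes whose founding member was isolated as a protein that binds the albumin promoter, were given with their competitor Nfil3. Hlf was at 14.8 ± 1.57 FPKM for CON and 4.78 ± 1.15 FPKM for LKO (SD, n = 3 each), with a log2 difference of -1.46 (SE 0.20) without a call in the whole fit (limma, adjusted p = 0.163). Tef was at 35.9 ± 1.26 and 19.2 ± 8.96 FPKM (adjusted p = 0.196, limma). Dbp was at 55.11, 54.35 and 93.56 FPKM across CON 1 to 3 and at 4.98, 61.57 and 28.51 FPKM across LKO 1 to 3. Nfil3 was at 16.39 FPKM in LKO 1 and 7.47 to 12.23 FPKM elsewhere. LKO 1 was thus the lowest library in Dbp and the highest in Nfil3, while Alb was nearly the same in LKO 1 and LKO 2. Collection times are not stated, and the part of these factors in the level of Alb was not tested.

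Of 20 tested receptors, partners and ligand enzymes of the 9 proteins, 0 passed at an adjusted p under 0.05 (limma), and 6 were lower and 0 higher at an unadjusted p under 0.05 (2 and 1 after median-ratio scaling). For all genes the corresponding shares were 18.9% and 3.25%, and 8.29% and 9.68% after scaling. They included the iron exporter gene Slc40a1 (31.4 ± 8.10 FPKM for CON and 15.1 ± 5.34 FPKM for LKO), the thyroid hormone receptor gene Thrb (6.20 ± 0.90 and 3.19 ± 0.93) and the iron sensor gene Hfe (19.0 ± 0.90 and 12.3 ± 2.87), each SD over n = 3, with adjusted p-values of 0.179 to 0.187 (limma). Fcgrt, the receptor that returns endocytosed albumin to blood, was at 124.52 to 130.17 FPKM in CON and 109.16 to 126.57 FPKM in LKO.

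Genes of translocation into and export from the endoplasmic reticulum, the route of all 9 proteins, numbered 53, and all were tested. At an adjusted p under 0.05, 0 passed (limma), and 5 were lower and 1 higher at an unadjusted p under 0.05, 2 and 4 after median-ratio scaling. Against 18.9% lower and 3.25% higher of all genes, and 8.29% and 9.68% after scaling, fewer of these genes were lower than of genes in general, a difference that was not tested. The list's median was -0.09 as deposited and 0.16 after that scaling. Of the 4 with the smallest p, Mia2 (106 ± 15.8 FPKM for CON and 58.9 ± 21.6 FPKM for LKO) and Mia3 (86.1 ± 10.6 and 61.4 ± 11.3) organise export of secretory cargo, and Srp54a (13.2 ± 1.65 and 7.07 ± 3.12) is a subunit of the signal recognition particle. Sec61b, a subunit of the translocation channel, was the 1 with a positive difference (0.59 on the log2 scale). Each SD is over n = 3 (limma, adjusted p of 0.180 to 0.212).

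Summed markers of each other cell type overlapped between the groups. The summed level of 8 Kupffer cell and macrophage markers was 123 to 182 FPKM in CON and 91.1 to 184 FPKM in LKO. That of 8 sinusoidal endothelial markers was 35.2 to 101 and 44.6 to 64.5 FPKM, that of 8 stellate cell markers 92.4 to 102 and 88.2 to 129 FPKM, and that of 6 cholangiocyte markers 29.4 to 51.5 and 34.1 to 75.0 FPKM. The 6 lymphocyte and neutrophil markers summed to 6.06 to 11.7 and 3.47 to 7.07 FPKM. The 3 red cell markers summed to 88.0 to 547 and 136 to 299 FPKM, highest in CON 1, the library with the most Alb. The 3 adipocyte markers summed to at most 0.11 FPKM in any library, and Lep was listed at 0 in all. Median log2 fold changes of the tested markers were 0.19 for stellate cells, 0.16 for cholangiocytes, -0.2 for Kupffer cells and -0.23 for endothelium. They were -0.13 for red cells and -0.7 for lymphocytes and neutrophils. After median-ratio scaling these medians were 0.39, 0.32, 0.04, 0.02, 0.14 and -0.54 in that order. All genes had -0.23 and -0.01, and the differences between lists were not tested. The part of other cells in the levels of the 9 genes was not tested.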

How the data were processed

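Liver RNA of 6 libraries was deposited as FPKM per gene, made by the authors with HISAT2, StringTie and genome build mm9, per the submitters' processing notes. Their versions, the strand setting and the annotation are not stated. Gene length, in the same deposited file, is in bases per the file headers. Of 56536 lines, 2 held no values. The 9 genes and all lists were chosen with earlier results of these data known.

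Genes whose mean FPKM reached 1 were taken to log2(FPKM + 1) and tested with limma 3.58.1 in R 4.3.3 (group only, mean-variance trend, two-sided, Benjamini-Hochberg over 11104 genes, threshold 0.05). Fold changes are on that scale and SE is moderated. FPKM are not counts, so depth is unknown and no count model was fitted. Named genes are the 9, Cd36, the albumin family, the PAR bZIP genes, up to 4 per list with the smallest p, and the 5 nearest to Alb; others are said to be named after their values were seen, or are partners of the 9 from the lists: Rbp4, Tfr2, Tfrc, Fcgrt, Itih1, Itih2 and Itih3. Data were simulated for LKO against CON (11104 genes, 5 draws). The noise was normal and independent between genes, without shifts shared by a library. The genes set to differ were drawn from those with higher mean levels. Of the genes set to differ by 1, 2 and 3 on the log2 scale, 45.1%, 82.7% and 95.8% were recovered. There were 8.8 false calls per draw. In the deposited data 1 gene passed, and Cd36 at -2.5 and Serpina7 at -2.15 did not. The simulated recovery may therefore not carry over to the deposited libraries. Windows before start sites are RefSeq's (GRCm38.p6), matched by symbol. Of 55536 Ensembl identifiers, 55450 were in GENCODE M21, used for overlapping genes. Alternatives were other pseudocounts, filters and scalings, removal of a length trend, a replicate block and leaving out each library.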

Additional observations from a re-analysis of the deposited data

How the results depend on the processing

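The differences of Alb, Serpina6 and Ambp stayed negative in all of the 14 alternative fits. The median log2 fold change of the 9 genes, -0.21, was 0.06 after median-ratio scaling and -0.52 with equal summed FPKM, since these settings rescale every library. Of all genes, 1 passed as deposited. The count was 0 with a pseudocount of 0.1, 0 with a mean FPKM of at least 5, 0 with the length trend removed, 2 with equal summed FPKM, and 268 with no filter, where limma warned that most residual variances were zero. Leaving out 1 library gave 0 to 2632 genes, the highest without LKO 3. Of the related lists 0 genes passed, but 3 did with no filter (Hlf, Cyp2e1 and Serpina7), and 0 to 53 with 1 library left out, 53 without LKO 3 and 2 without CON 1 (Saa1 and Saa2). The cause was not tested. With the library number as a replicate block 0 genes passed. Same-numbered libraries correlated at -0.05, 0.17 and 0.07 in their deviations from group means, and differently numbered ones at -0.16 to 0.06. With n = 3 per group these values cannot decide whether the numbers pair the libraries. Depth in reads is unknown.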
